A study of Mus musculus with 2 samples.

Results

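Open chromatin that lies between genes but close to one was described in the liver of mouse embryos. A member is a region with peaks of both DNase-seq libraries, its midpoint outside every protein-coding gene, and a distance of more than 1 kb and at most 20 kb from the nearest transcript start of a protein-coding gene. Regions within 1 kb of the start of a non-coding RNA gene in the GENCODE annotation were left out. Of 99252 merged peak regions, 45831 held peaks of both replicates and are called shared. Of the shared regions, 25847 lay more than 1 kb from every protein-coding start, 13334 of those had their midpoint outside protein-coding genes, and 6540 of those lay within 20 kb of a start. Leaving out 537 at non-coding starts gave 6003 members, 13.1% of the shared regions.

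DNase-seq maps the places where the enzyme DNase I can cut DNA, which are mostly stretches free of nucleosomes. The 2 libraries, replicate 1 and replicate 2, came from liver tissue of embryos aged 13.5 days on a mixed C57BL/6N,129 background. Both carried the genotype label wild type and held multiple copies of the A85 YAC (an artificial chromosome propagated in yeast), and the sources used here do not state which sequence that YAC holds or whether tissue of several embryos was pooled. The biological replicates are separate tissue samples that share a donor label, sex was not collected, and no other condition is given, so the replicates can only be compared with each other, as 1 library against 1 library, with no test.

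Regions of this kind include enhancers, the elements to which transcription factors bind to raise the output of a gene at a distance, and insulators, which CTCF binds to shape chromatin loops. A bound protein shields its site from the enzyme and leaves a footprint, a short uncut stretch inside the open region. The liver of this age is the main site where red blood cells form, and it also holds hepatoblasts, the precursors of hepatocytes. GATA1, with TAL1, KLF1 and NF-E2, is the central factor of red cell genes, while HNF4, FOXA and C/EBP factors drive hepatocyte genes.

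The members that carry the main observations are printed here from the GRCm38 reference, 5′ to 3′ on the plus strand, because they show the kinds of sequence found in this class. The first is the highest member by mean rank of its values in both libraries, at chr6:117879461-117879700, 16.4 kb downstream of the start of the zinc finger gene Zfp239, with capitals for the 4 footprints found in both replicates.
Zfp239 member: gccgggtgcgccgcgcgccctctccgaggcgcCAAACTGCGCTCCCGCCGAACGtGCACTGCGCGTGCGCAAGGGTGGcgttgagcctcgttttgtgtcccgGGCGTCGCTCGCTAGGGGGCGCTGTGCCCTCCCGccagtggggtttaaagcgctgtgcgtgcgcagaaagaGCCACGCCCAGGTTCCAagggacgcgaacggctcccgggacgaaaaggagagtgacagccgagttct
The second ranks next, at chr8:94704001-94704260, 7.72 kb upstream of the plasmolipin gene Pllp, with the 83 bases of a tRNA-Leu gene, which RefSeq places on the minus strand, in capitals.
Pllp member: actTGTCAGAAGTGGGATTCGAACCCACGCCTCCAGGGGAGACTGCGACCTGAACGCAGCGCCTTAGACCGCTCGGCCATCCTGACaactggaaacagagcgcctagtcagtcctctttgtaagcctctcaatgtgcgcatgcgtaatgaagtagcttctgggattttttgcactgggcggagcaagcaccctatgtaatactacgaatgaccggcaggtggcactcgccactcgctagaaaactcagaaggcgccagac
The third is hypersensitive site 2 of the beta-globin locus control region, at chr7:103861001-103861200, upstream of the embryonic globin gene Hbb-y, with capitals for the 5 footprints found in both replicates.
Hbb-y member: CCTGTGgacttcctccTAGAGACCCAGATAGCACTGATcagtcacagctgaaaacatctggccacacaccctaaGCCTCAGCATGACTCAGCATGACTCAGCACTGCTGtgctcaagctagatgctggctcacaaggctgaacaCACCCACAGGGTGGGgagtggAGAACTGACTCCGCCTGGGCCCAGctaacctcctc
The fourth, at chr3:103799621-103799820, 7.82 kb downstream of the DNA repair nuclease gene Dclre1b, was among the 5 members with the highest ratio of replicate 1 to replicate 2, and the capitals mark its 2 matches to the GATA motif AGATAA on either strand.
Dclre1b member: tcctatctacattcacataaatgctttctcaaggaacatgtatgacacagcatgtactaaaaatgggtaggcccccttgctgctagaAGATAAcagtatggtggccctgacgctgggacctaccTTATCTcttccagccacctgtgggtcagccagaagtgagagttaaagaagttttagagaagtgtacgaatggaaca
The fifth, at chr2:148048561-148048760, 1.59 kb upstream of the forkhead factor gene Foxa2, was among the 5 with the lowest ratio, and the capitals mark its 3 footprints found in both replicates.
Foxa2 member: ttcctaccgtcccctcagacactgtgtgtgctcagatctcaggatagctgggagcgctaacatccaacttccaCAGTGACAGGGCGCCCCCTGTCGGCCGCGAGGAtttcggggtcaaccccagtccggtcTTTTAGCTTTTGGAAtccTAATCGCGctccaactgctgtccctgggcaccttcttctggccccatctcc

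Bases are counted from 1 at the left end of each printed sequence. In these sequences the letters and the footprints met in different ways. The Zfp239 member held 1 NRF1 match (GCGC, 1 free base, TGCGC) at base 61, inside a footprint of both replicates. In the Hbb-y member a pair of adjacent MARE matches (TGC followed by TGANTCA), the element that NF-E2 and related factors bind, began at bases 84 and 94, both inside a footprint of both. RefSeq lists there tandem NF-E2 sites of 19 bases seen by in vivo footprinting and a GATA-1 site of 6 bases, and the footprints of both libraries covered all 19 and all 6. That GATA-1 site reads AGATAG, which the motif AGATAA does not match, so this member counts below as one without a GATA match. Of the 2 GATA matches of the Dclre1b member, the one at base 125 lay in a footprint of both replicates and the one at base 88 did not. The Foxa2 member had a CTCF match (CC, 3 free bases, AG, 2 free bases, GGC) at base 86 inside a footprint of both, where replicate 2's own footprint reached it and replicate 1's did not. A match is a description of letters, not a site. Footprints of both are the joined extents of footprints of the replicates that overlap each other.

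The peak value is the authors' signal, of unnamed scale. Within a tolerance of 0.05 steps, the values were whole steps of 0.0127 in replicate 1 and of 0.00604 in replicate 2, so division by the step gives a count. Intervals are 95% intervals of such counts (Poisson) or of shares (Wilson) and cover counting error only. A smaller step goes with a deeper library if values were scaled to depth, which the sources do not state. Over all shared regions replicate 1 had a median of 1.14 times the value of replicate 2, and every ratio below is a log2 value with that median set to 0. As a check of the tissue label, the red cell regulators Gata1, Klf1 and Tal1 had a shared promoter region, as had the alpha-fetoprotein gene Afp and the forkhead gene Foxa3, while the albumin gene Alb and the hepatocyte receptor gene Hnf4a had none.

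Members were mostly narrow regions of moderate height. Their values ran over 0.127 to 23.2 in replicate 1, with a median of 1.38 (109 counts), and over 0.157 to 18.4 in replicate 2, with a median of 1.10 (183 counts). A count of at least 50 in both libraries was reached by 5230 members (87.1%). Medians of shared promoter regions were higher, at 2.62 and 2.40 in replicates 1 and 2, and those of shared intergenic regions past 20 kb were lower, at 0.899 and 0.755. The median width was 200 bp, with a range of 69 to 1400 bp. Median GC content was 52.0%, against 63.5% in promoter regions, and the ratio of observed to chance CpG had a median of 0.281 against 0.754. In 112 members (1.87%) the median 31-base word occurred more than 1 time in the assembly, so their reads may come from other copies. Just inside the inner limit of 1 kb lay regions near the starts of Plekho2 (5.53 in replicate 1 and 3.28 in replicate 2) and Ssbp3 (1.54 and 1.77), and just outside it regions 997 bp from those of Ftl1 (6.48 and 5.40) and Hmga1 (2.53 and 2.96). At the outer limit Nos1ap (1.48 and 1.65) and Pex5 (1.10 and 0.773) were just inside, at 20000 and 19994 bp, and Nppc (1.33 and 1.41) and Fam3b (0.418 and 0.404) just outside, at 20011 and 20012 bp.

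Members grew sparser with distance, and did so faster on the upstream side of the start than downstream. Counted by midpoint, the intergenic sequence that met the rule held 21.2 shared regions per Mb (interval 20.7 to 21.8), against 4.88 (4.76 to 5.01) past 20 kb. Upstream the density was 38.9 per Mb at 1 to 2 kb, 24.4 at 2 to 5 kb, 18.9 at 5 to 10 kb and 16.1 at 10 to 20 kb. Downstream, beyond the end of the gene, it was 30.1, 28.1, 22.9 and 21.7 per Mb. The intervals of both sides overlapped in the nearest bin only in part of their range (35.9 to 42.0 upstream, 22.1 to 40.1 downstream, the last from 47 regions), and at 10 to 20 kb they did not (15.3 to 17.0 upstream, 20.4 to 23.1 downstream). Of the members, taken by nearest edge, 68.3% (interval 67.2 to 69.5) lay upstream. With distance from the midpoint the share was 69.0%, a little under the 71.4% of the qualifying sequence that lies on that side.

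**Figure D1:**
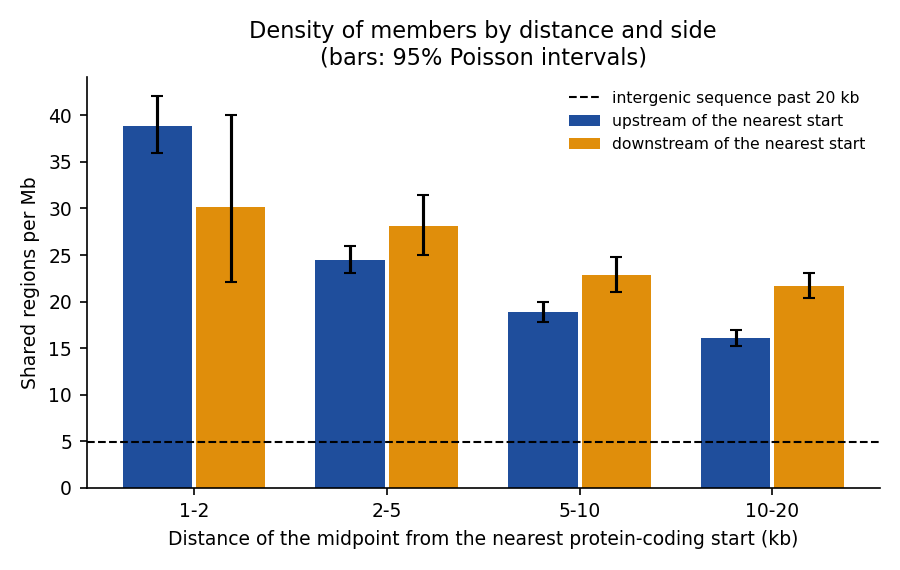
Shared regions per Mb of qualifying intergenic sequence (y axis) by distance of the midpoint from the nearest protein-coding start in kb (x axis), upstream and downstream, with 95% Poisson intervals. Every bin lies above the dashed line at 4.88 per Mb for intergenic sequence past 20 kb, and the upstream bars run down to 16.1 while the downstream bars end at 21.7.

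The members had 4086 nearest genes, 18.6% of 21938 protein-coding genes, and 2880 of these genes had 1 member. Of the members 70.8% had a nearest gene with a shared promoter region of its own, against 58.4% of all protein-coding genes, and the share was 72.5% for shared regions past 20 kb. Another shared region lay within 2 kb of 37.2% of members, against 45.9% of all shared regions. The share was above that of members in promoter regions and in shared intergenic regions at non-coding starts. It was below that of members in shared regions inside genes (31.4%) and in shared intergenic regions past 20 kb (24.8%). The gene with the most was Abt1, which encodes a transcription activator, with 15 members, 11 of them on tRNA genes. Dhx37, a helicase gene, had 10 members with 5 on tRNA genes, and Trim27, a ubiquitin ligase gene, had 10 with 6. Cited4, which encodes a CBP and p300 interacting protein, had 9 with a highest value of 6.32 in replicate 1 and 2.94 in replicate 2, and the kinase gene Pim1 had 9 with highest values of 4.30 and 3.16. The 9 near the Fc receptor gene Fcgr3 included 7 of repeated sequence.

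The 10 highest members lay in part at starts that the rule could not see and at tRNA genes. After the Zfp239 member (19.3 and 18.4 in replicates 1 and 2, with intervals of 18.4 to 20.3 and 17.7 to 19.1) and the tRNA-Leu member near Pllp (18.2 and 17.1) came regions near the phosphatase gene Ctdsp1 (19.3 and 14.2) and the gene Trappc9 of a vesicle tethering complex (23.2 and 13.4). Next were those near Zfp395 (18.1 and 14.3), the amino acid transporter gene Slc38a2 (17.8 and 14.2) and Hic2 (19.3 and 13.7). The list ended with regions near Myl12b, a myosin light chain gene (22.7 and 13.1, repeated sequence), 1810010H24Rik (16.8 and 16.5, a tRNA-Arg gene) and Cpeb4 (19.8 and 12.8). RefSeq, unlike the GENCODE annotation behind the rule, has a long non-coding RNA (Gm38882) start inside the Zfp239 member and an mRNA start 20 bp from the Cpeb4 member. In all, 450 members lay within 1 kb of a RefSeq transcript start, 239 of them with a long non-coding RNA nearest and 170 with an mRNA. The 100 highest members had a median GC content of 60.6% and a median CpG ratio of 0.778, and 39 of them lay on a tRNA gene or within 1 kb of a RefSeq start. These 100 were chosen for high values in both libraries, so how far their replicates differed follows in part from the choice.

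Members on genes for transfer RNA had higher values than most. tRNA genes are transcribed by RNA polymerase III from a promoter inside the gene, its A and B boxes, to which the factor TFIIIC binds. Of 403 tRNA genes that RefSeq annotates on the 21 chromosomes, 259 lay in a shared region, and 132 of those lay in 133 members. The rule left out regions at non-coding starts of GENCODE only, so these tRNA genes of RefSeq stayed among the members. This was 2.22% of members, against 0.556% of all shared regions. The share was 1.86% in shared intergenic regions at non-coding starts and 0.919% in those past 20 kb. In promoter regions it was 0.180% and in shared regions inside genes 0.0639%. Their values ran over 0.620 to 18.2 in replicate 1, with a median of 5.92, and over 0.453 to 17.1 in replicate 2, with a median of 4.40. In replicate 1, 128 of the 133 were above the median of all members, and in replicate 2, 123 were. Of the 100 highest members 30 were on tRNA genes. After the regions near Pllp and 1810010H24Rik, the highest were those near Haao (16.1 in replicate 1 and 15.9 in replicate 2), Eef2k (14.9 and 15.2), Aurkb (13.2, and an interval of 10.5 to 11.5 in replicate 2) and Lrp3 (12.3 and 11.2). The group was unevenly placed, with 51 members on chromosome 13, 31 on chromosome 11 and 18 on chromosome 1, and the nearest genes with the most were Abt1 (11), Zfp184 (7) and Trim27 (6). tRNA-Leu (15), tRNA-Pro and tRNA-Ser (11 each) were the most frequent products.

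Footprints were placed on these tRNA genes and just before them. A footprint lay in 97.7% of the 133 members in replicate 1 and in 99.2% in replicate 2, and 127 held a footprint of both. In members on 1 tRNA gene, 140 of 382 footprints of both were centred inside the gene and 43 downstream, and the rest lay upstream, at a median position of -28 bp from its start. The B box letters GTTCGANNC, a motif added after the values were seen, had 90 matches in footprints of both in all members, 0.731 per kb, against 34 matches and 0.0363 per kb outside footprints. In the printed Pllp member the B box match at base 16 lay inside a footprint of both, as did a CTCF match at base 212. The ratio of the replicates was near that of all shared regions, with a median of 0.16 on the log2 scale, and replicate 1 was more than 2-fold above in 8 members and more than 2-fold below in 0, against 5.64% and 3.02% of all shared regions. GC content had a median of 48.0%, and 3 of the 133 were of repeated sequence. The tRNA genes were set beside the members after the data were seen, and the counts are a description.

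Nearly all members carried a footprint. In replicate 1, 5211 members (86.8%, interval 85.9 to 87.6) overlapped 13670 footprints, and in replicate 2, 5763 members (96.0%, 95.5 to 96.5) overlapped 18028, with a median of 2 and 3 per member and a median width of 10 and 11 bp. Over all shared regions the shares were 81.3% in replicate 1 and 92.9% in replicate 2. Footprints of both libraries overlapped in 4359 members (72.6%), against 66.4% of all shared regions, and 102 members had none. Of the 13670 footprints of replicate 1, 8748 overlapped one of replicate 2, and of the 18028 of replicate 2, 8168 (45.3%) overlapped one of replicate 1. Over all shared regions these overlaps were near, at 65.4% and 46.8%. The count behind a region moved with this. In replicate 1 the share with a footprint was 42.9% of members under 50 counts and 85.2% from 50 to under 100, and a footprint lay in 1862 of 1919 members from 100 to under 200 and in all 413 at 400 or more (interval from 99.1%). From 100 to under 200 counts, promoter regions had 74.8% (73.4 to 76.2) in replicate 1 and 78.9% (77.6 to 80.1) in replicate 2, below the members, whose intervals were 96.2 to 97.7 and 95.8 to 97.3. Regions inside genes (96.8% and 95.1%) and past 20 kb (97.5% and 97.3%) were near the members. At these counts promoter regions held a mean of 2.31 footprints in replicate 1 and 2.85 in replicate 2, against 2.54 and 2.58 in members. Per kb they held 6.01 and 7.45, against 10.2 and 10.5. Promoter regions were wider, at a median of 280 bp over all counts against 200 bp, so equal counts are not equal coverage per base. Among the members with the most footprints of both were those near Tmem29 (10), Pdzk1ip1 (8), Scd2 (8) and Glis2 (7). The Pdzk1ip1 member had an interval of 12.2 to 13.8 in replicate 1 and 6.55 to 7.35 in replicate 2 and lay 36.2 kb from the nearest start of Tal1, the blood factor gene next to it.

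**Figure D2:**
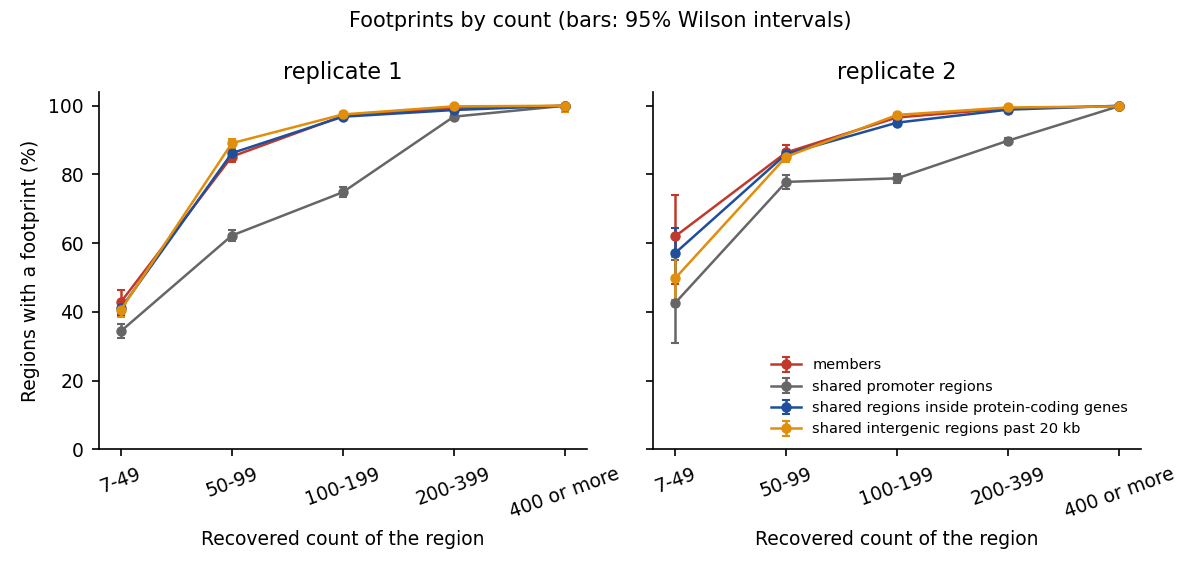
Share of regions with a footprint (y axis, %) by recovered count of the region (x axis), in replicate 1 (left) and replicate 2 (right), for members and 3 other classes of shared regions, with 95% Wilson intervals. From 100 to under 200 counts promoter regions stand at 74.8% and 78.9%, below the members, and the other classes follow the members.

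The letters inside footprints were above all those of CTCF. Footprints of both covered 185 kb, 12.6% of the bases of the members, and the motifs, the B box included, were searched on both strands within them and in the 1136 kb outside every footprint, with rates per kb of positions at which a motif could lie whole. The CTCF motif had 1702 matches inside, 16.8 per kb, and 222 outside, 0.255 per kb, a ratio of 65.8. A match inside a footprint of both was found in 1676 members (27.9%), against 6.47% of promoter regions, 20.7% of shared regions inside genes and 20.8% of those past 20 kb. In the central 200 bp, 36.6% of members had a match, against 24.4% of all shared regions, 34.4% of those past 20 kb and 31.3% of those inside genes. Footprints of both with a CTCF match had a median width of 31 bp, the others 18 bp, and of 2370 footprints at least 30 bp wide 1095 (46.2%) had a match. A match had to lie whole in the joined footprint, so footprints shorter than the motif could only be among the others. Part of the gap in width is therefore set by the search. In 1652 members with exactly 1 such match, the motif read toward the nearest start in 773 (46.8%, interval 44.4 to 49.2), so it read away from the start slightly more often. Members with a match in a footprint had a median value of 1.62 in replicate 1 and 1.48 in replicate 2, and 48 of them (2.86%) differed by more than 2-fold between the libraries, against 495 (11.4%) of the other members and 8.66% of all shared regions. These 48 come from members that had to hold a footprint of both libraries, so the low share follows in part from the choice. Without that condition, 2019 members off tRNA genes had a CTCF but no GATA match in the central 200 bp. Replicate 1 was more than 2-fold above in 2.67% of them and below in 1.93%.

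Motifs of promoter factors such as NRF1, CREB and SP were also denser inside footprints, while those of FOXA, CEBP and PU.1 were thinner there. NRF1 had 38 matches inside and 4 outside, at 0.329 and 0.00438 per kb. Ratios were 14.7 for the CREB motif TGACGTCA (12 matches inside), 7.90 for MARE (31), 5.08 for the YY1 motif AAGATGGC (36) and 4.78 for the SP motif GGGCGG (419). The KLF motif CCNCACCC stood at 1.92 with 146 matches inside, and the composite of an E-box and GATA (CTG, 8 free bases, GATAA), which TAL1 and GATA1 bind together, at 2.84 with 16. MARE contains the AP-1 or NFE2 motif TGANTCA, whose ratio was 1.05, and the composite shares letters with GATA. GATA alone had 115 matches inside and 732 outside, a ratio of 1.08. This ratio was 2.37 with the footprints of replicate 1 alone and 0.743 with those of replicate 2 alone. By library the ratio of the composite was 3.04 and 1.38, on 9 and 7 matches, and that of MARE 11.4 and 5.89, while that of CREB was 9.12 with the footprints of replicate 2 and above 14.7 with those of replicate 1. Several motifs were thin inside, with 0 matches inside and 15 outside for the HNF4 motif CAAAGTCCA, 1 and 140 for the FOXA motif TGTTTAC, and 26 and 427 for the CEBP motif TTGCNNAA. The motif GAGGAAGT of PU.1, a blood cell factor, was as thin, with 7 inside and 114 outside. With footprints extended by 5 bp the ratio was 0.938 for HNF4 on 3 matches and 0.555 for FOXA on 17, against 0 and 0.0507 without the extension. Missing letters say nothing of the factors, since these strings are narrower than what the proteins bind.

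**Figure D3:**
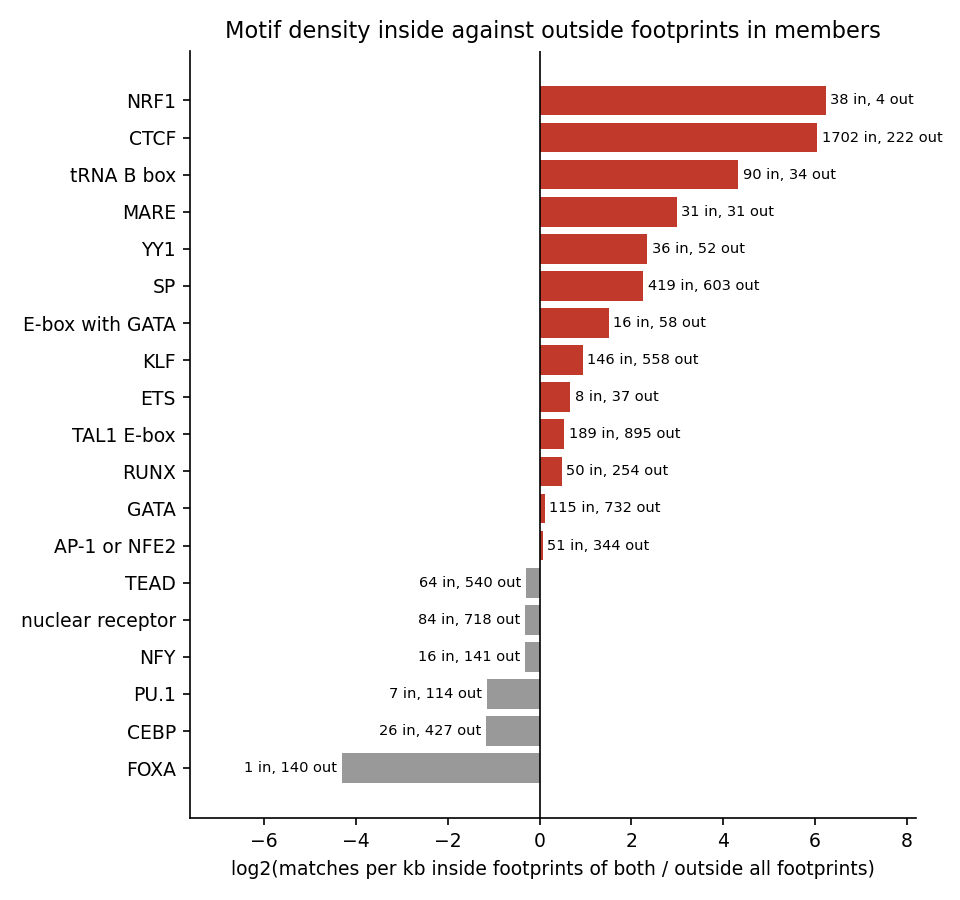
Log2 ratio of matches per kb inside footprints of both replicates to matches per kb outside all footprints of members (x axis) for each motif with at least 20 matches (y axis); the numbers are matches inside and outside. NRF1 (38 in, 4 out) and CTCF (1702 in, 222 out) stand highest, GATA lies near 0 and FOXA lowest.

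The libraries differed more often at members with GATA letters, chiefly those without CTCF letters. Across members the values of replicates 1 and 2 were related with Spearman's rho 0.825 and, for log2 values, Pearson's r 0.856, over 6003 regions that share the same libraries, against 0.960 and 0.958 over promoter regions. Spearman's rho was 0.776 over shared regions inside genes and 0.782 over those past 20 kb, below that of the members. The median log2 ratio over members was 0.05. The replicates differed by more than 2-fold in 543 members (9.05%), against 8.66% of all shared regions. Replicate 1 was more than 2-fold above in 434 (7.23%), against 5.64% of all shared regions, and more than 2-fold below in 109 (1.82%), against 3.02%. In promoter regions replicate 1 was above in 1.57% and below in 3.84%. It was above in 10.1% and below in 1.97% of shared regions inside genes, and in 8.50% and 3.61% of those past 20 kb. Members thus differed less often than these last 2 classes, where 12.1% each were past 2-fold either way. Of the 434 members high in replicate 1, 184 (42.4%, interval 37.8 to 47.1) had a GATA match in the central 200 bp, against 661 of 5460 members within 2-fold (12.1%) and 4 of 109 members low in replicate 1 (3.67%, 1.44 to 9.06). Seen the other way, 21.7% of 849 members with a GATA match were more than 2-fold above in replicate 1, with a median ratio of 0.49, and 4.85% of the members without one, with a median of -0.00. Off tRNA genes, 671 members had a GATA but no CTCF match in the central 200 bp. Their median ratio was 0.62, and replicate 1 was more than 2-fold above in 25.5%. In the 169 members with both matches the median was -0.06 and the share above 7.10%, near the 7.23% of all members.

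GATA shares fell in the same order outside the class. In shared regions inside genes or past 20 kb the shares were 44.0%, 14.2% and 5.31% for regions high, within 2-fold and low in replicate 1, and in promoter regions 32.8%, 4.55% and 2.22%. CTCF letters were rarer in the members high in replicate 1, with 15.2% (interval 12.1 to 18.9) of those high in replicate 1, 38.3% (37.0 to 39.6) of those within 2-fold and 37.6% (29.1 to 47.0) of those low. The composite of E-box and GATA was found in 5.99% of the members high in replicate 1 and in 0 of the 109 low ones, with a Wilson interval up to 3.40%. Members high in replicate 1 were also less rich in GC, at a median of 48.7% against 52.3% within 2-fold and 55.9% in the low ones, and across members GC content and ratio had a Spearman correlation of -0.23. They were wider as well, at a median of 260 bp against 200 bp both within 2-fold and in the low ones. Across members width and ratio had a Spearman correlation of 0.28. In replicate 1 a footprint lay in 97.2% of the high members and in 42.2% of the low ones, and in replicate 2 in 91.7% and 98.2%; the groups were formed from these values, and 42.2% is close to the 42.9% of all members under 50 counts in replicate 1. The part of depth, GC content, region width and cell composition in these differences was not tested.

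**Figure D4:**
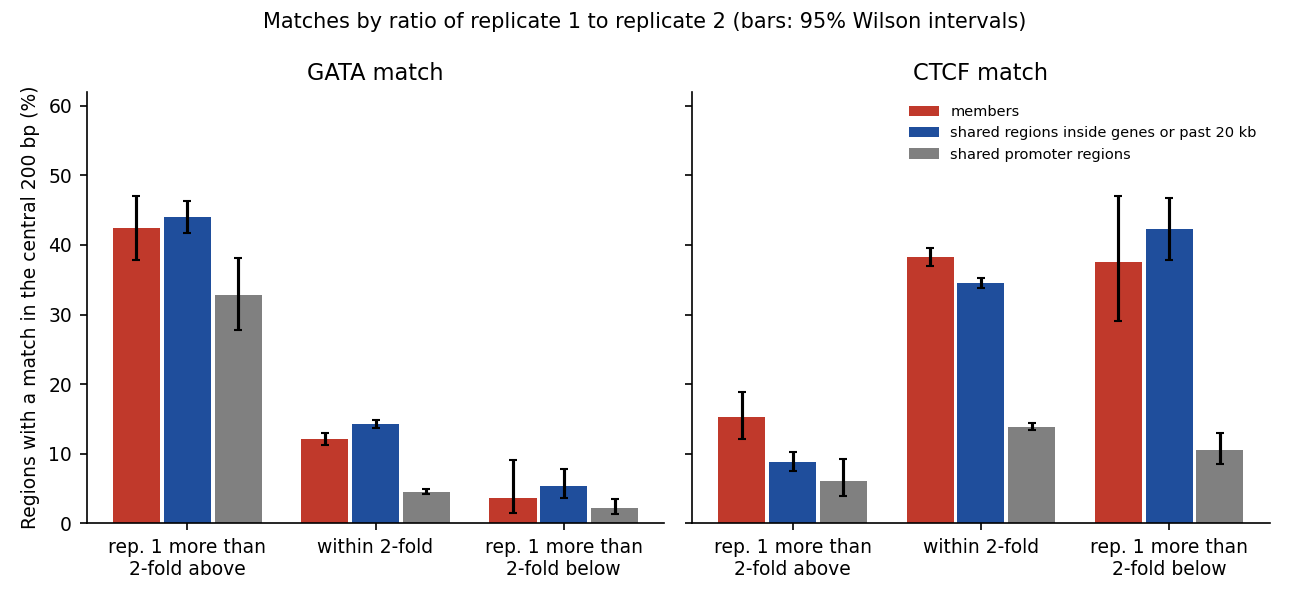
Share of regions with a GATA match (left) or a CTCF match (right) in the central 200 bp (y axis, %) by the ratio of replicate 1 to replicate 2 (x axis), for members, other shared regions away from promoters, and promoter regions, with 95% Wilson intervals. Among members the GATA share is 42.4%, 12.1% and 3.67% from left to right, and the CTCF share 15.2%, 38.3% and 37.6%.

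The members with the most unequal values were single regions near genes of varied function. Among those with at least 50 counts in both libraries, the highest ratios were at Trim24, a nuclear receptor cofactor gene (2.13 in replicate 1 and 0.368 in replicate 2, log2 ratio 2.34), Dclre1b (6.56 and 1.15, 2.33) and Tuft1 (1.75 and 0.308, 2.32, repeated sequence). Arrdc3 (2.21 and 0.392, 2.31) and Myzap (3.25 and 0.586, 2.29) followed. The lowest were at the tyrosine kinase gene Fes (0.759 and 1.77, -1.41), the RNase P subunit gene Rpp40 (0.633 and 1.45, -1.38) and 2210011C24Rik (0.937 and 2.09, -1.35), then Foxa2 (0.747 and 1.63, -1.31) and the glutamate receptor gene Grid1 (0.671 and 1.46, -1.31). These 10 were chosen for their ratios, and the values are a description.

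**Figure D5:**
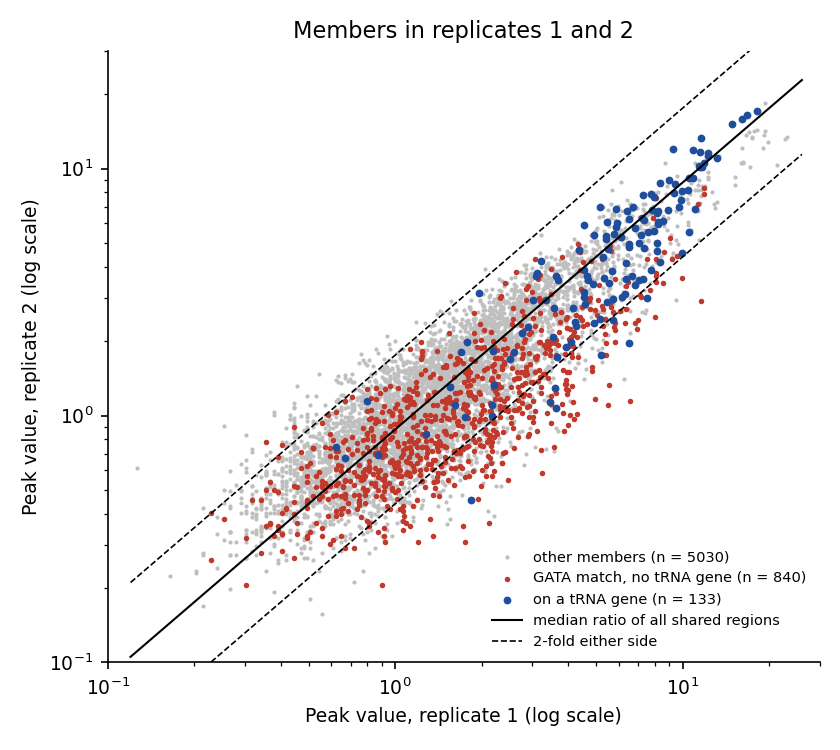
Peak value of each member in replicate 1 (x axis, log scale) and replicate 2 (y axis, log scale), with members on tRNA genes, other members with a GATA match, and the rest in separate colours. The solid line is the median ratio of all shared regions and the dashed lines lie 2-fold either side; 434 members lie below the lower line, many of them with a GATA match, and tRNA members lie mostly at the upper end.

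Members near globin genes and near genes of heme and iron all had a ratio above 0, while those near erythroid transcription factor genes did not, with 5 of 11 above 0. Of the members near housekeeping genes 11 of 14 were above 0, and over all members 3198 of 6003 were. In bulk tissue, fewer cells of a type and less open chromatin per cell cannot be told apart. Of 9 globin genes 4 had a member, and all 7 of their members had a ratio above 0, with a median of 1.23. Of these 7, replicate 1 was more than 2-fold above in 4, against 434 of all 6003 members (7.23%). Hypersensitive site 2, printed above, had 11.2 in replicate 1 and 7.18 in replicate 2, and the sites beside it that RefSeq calls HS1 and HS3 had 3.86 and 3.58 in replicate 1 and 0.869 and 0.718 in replicate 2, so site 2 had a ratio of 0.45 and the others 1.96 and 2.13. At the alpha-globin cluster the members nearest Hba-a1 (7.13 and 4.42), Hbq1b (3.42 and 1.14) and Hba-a2 (1.99 and 0.742) lie among duplicated genes, although the median 31-base word of each occurs 1 time in the assembly. Of 21 genes of heme synthesis and iron, 5 had 8 members, all 8 with a ratio above 0 and a median of 0.68. They included a region upstream of the heme oxygenase gene Hmox1 (11.4 and 6.72), one near Cpox, an enzyme of heme synthesis (3.49 and 1.57), and one near the ferritin gene Fth1 (6.24 and 3.36). Of 20 genes for membrane proteins and receptors of red cells, 6 had 18 members, 13 with a ratio above 0 and a median of 0.27. Slc4a1, which encodes the anion exchanger band 3, had 7 of them, from 7.24 and 2.63 at the highest to 0.810 and 1.38 at the lowest, and Epb41, which encodes protein 4.1, had 4, with a highest of 7.72 and 3.43. Of 20 erythroid transcription factor genes 5 had these 11 members, with a median of -0.16. Replicate 1 was more than 2-fold above in 2 of them and below in 0, against 7.23% and 1.82% of all members. Near Tal1 the highest had 7.38 and 7.22, a ratio of -0.16, and the others had ratios of 1.36 and -0.24. Near Gata1 the members had 2.21 and 0.821, and 1.52 and 0.863, with ratios of 1.24 and 0.63. The 3 near Tcf3 had -0.70, -0.21 and -0.52, and the 2 near Foxo3 had 0.13 and -0.31.

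Lists of other cell types rested on few members and had median ratios on either side of 0. Of 27 hepatoblast genes 6 had 9 members with a median of -0.22, 4 of them above 0. The highest near Dlk1, a Notch family ligand (4.90 and 4.01), and near the keratin gene Krt8 (5.20 and 4.06) had ratios of 0.10 and 0.17, while the other members near Dlk1 (-0.54 and -0.83) and Krt8 (-0.31) were below 0. Endothelial genes (7 of 19, 12 members) had a median of -0.06 with 6 above 0. Members near Egfl7 ran over ratios of -0.39 to 0.65 and those near Eng were at 0.20 and -0.42. Macrophage genes (4 of 20, 5 members) had -0.04 with 1 above 0, at a second member of the sialoadhesin gene Siglec1 (3.01 and 2.12). Stellate and mesenchymal genes (4 of 20, 6 members) had -0.03, although they spread widely. The reelin gene Reln had a member of 11.6 in replicate 1 and 2.92 in replicate 2, a ratio of 1.81, and the member near the collagen gene Col1a1 had a ratio of -1.47. Lymphoid genes (5 of 20, 8 members) had -0.67, neural genes (4 of 20, 7 members) -0.17, and granulocyte and mast cell genes (5 of 18, 8 members) 0.11, with Cebpe, a granulocyte factor gene, at 8.57 and 3.44. Stem and progenitor genes (6 of 15, 7 members) had 0.26, megakaryocyte genes (2 of 18, 3 members) 0.48 and housekeeping genes (9 of 19, 14 members) 0.17. The share of list genes with a member was 18.6% over all genes, and the median ratio 0.05 over all members. For the promoter regions of these genes, the median ratio was 0.24 for the red cell membrane list (46 regions, summed value 223 in replicate 1 and 146 in replicate 2) and 0.13 for heme and iron (47 regions, 318 and 234). It was 0.01 for erythroid transcription factors, 0.12 for globin genes, 0.06 for housekeeping genes and 0.14 for granulocyte and mast cell genes, the last on 2 regions. Lower values were -0.36 for hepatoblast genes (14 regions, 26.8 and 25.7) and -0.53 for stellate and mesenchymal genes (13 regions, 14.4 and 16.5), with macrophage genes at -0.36, endothelial genes at -0.31, lymphoid genes at -0.28, neural and stem and progenitor genes at -0.19 each, and megakaryocyte genes at -0.13, against -0.06 for all promoter regions.

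Elements whose function RefSeq records coincided with members about as rarely as with shared regions in general. In all 41 members (0.683%) lay on such an element, against 0.580% of all shared regions, with a median of 2.61 in replicate 1 and 1.53 in replicate 2, and this overlap was looked at after the values were seen. Besides the beta-globin sites above, these included a further site of that control region nearest the olfactory receptor gene Olfr66 (3.11 and 0.863), another hypersensitive site nearest Olfr65 (6.23 and 1.40), and an element of the alpha-globin locus near Nprl3 (6.33 and 2.69). Of the members 26 lay on 20 enhancers of the VISTA collection, which are tested in transgenic embryos, and RefSeq lists liver among the active tissues of 0 of those enhancers. They included a region near the antiproliferative gene Btg2 (8.82 and 5.63) and the highest member near Epb41 (7.72 and 3.43), on an enhancer listed as active in blood vessels.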

How the data were processed

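DNase-seq was done on 2 libraries of 1 group, embryonic liver. The authors deposited peaks with a signal value, footprints with the constant p-value threshold 0.01, and stretches of cut rate with a false discovery rate under 0.05, a q-value. Per the notes deposited with the files, each came from the filtered alignment of its own library on mm10, and libraries were not pooled. No source used here names the aligner, the peak caller or the normalization.

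From these, overlapping peaks (1 bp) of the longer lists were merged, classed with GENCODE M21 and set beside RefSeq annotation. Each value divided by its step gave a count. Distances run from the nearest edge of a region to any protein-coding transcript start. The ratio of replicate 1 to replicate 2 was centred on the median over all shared regions. With 1 library per side no test was run, and the spread between the libraries may be technical. Named were the 10 highest members by mean rank, the 5 highest and 5 lowest ratios with at least 50 counts in both, the 5 with most footprints of both (1 of them is not reported here), those at the limits, genes with the most members, and list genes; other names were chosen after their values were seen. Members, lists and motifs were chosen with earlier results of these data known, and the tRNA genes, B box, RefSeq elements and groups by motif after their values were seen. The steps were tested on simulated data. Software was Python 3.11.15 with numpy 2.4.6, pandas 2.3.3, scipy 1.17.1, statsmodels 0.14.6, numba 0.67.0 and matplotlib 3.10.9.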

Additional observations from a re-analysis of the deposited data

How the results depend on the processing

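The 16 results were recomputed under 19 alternatives, and 161 of 205 values moved by less than the spread. The other 44 moved by more, and the cause was not tested. For the number of members a fixed fold limit was taken as the spread. For median values, footprint shares and motif density ratios it was the standard deviation between the 2 replicates, and for the other results a 95% interval. The number of members (6003) was 3658 with an outer limit of 10 kb, 9005 with 50 kb, and 9148 to 9705 with peaks of 1 replicate alone. With the shorter peak lists median values were 1.81 and 1.51 in replicates 1 and 2, the median ratio 0.020, the share past 2-fold 6.85%, the share with a footprint in replicate 1 94.8%, the upstream share 67.0%, the share whose nearest gene had a shared promoter region (the promoter share) 66.5%, GC content 52.5%, the CTCF share 40.8%, the GATA share 49.4% in members high in replicate 1 and 11.1% within 2-fold, and the tRNA share 3.03%. With a 50% overlap the median ratio was 0.013, the share past 2-fold 7.49%, the promoter share 64.9%, the CTCF share 40.7% and the GATA share within 2-fold 10.7%. Gene 5′ ends in place of all transcript starts gave 79.6% upstream and a promoter share of 63.8%, the 10 kb limit 74.7% and 73.0%, and the 50 kb limit 64.6% upstream. A minimum of 50 counts gave a median ratio of 0.11 and a promoter share of 73.5%, and keeping regions at non-coding starts a CTCF share of 35.3%. Leaving out a replicate gave median values of 0.937 and 0.767 in replicates 1 and 2, a footprint share of 72.9% in replicate 1 and 83.1% in replicate 2, a promoter share of 72.1 to 77.7%, GC content of 50.9 to 52.9%, a CTCF share of 27.2 to 29.4% and a tRNA share of 1.38 to 1.44%. The CTCF density ratio was 39.7 with footprints extended by 5 bp and 83.8 with those of replicate 1, and the GATA ratio 2.37 with those of replicate 1. Leaving out tRNA members, repeated members or those within 1 kb of a RefSeq start, chosen after the data were seen, moved none of the results past the spread. No paired analysis was possible because the study has only 1 group. Counts of 10 to 1830 in replicate 1 and 26 to 3047 in replicate 2 limit the precision of low members, and the share with a footprint followed the count.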
